A study of Mus musculus with 35 samples.

Results

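Mature miRNAs of the miR-26 and miR-101 families were followed in mouse liver after exposure to a mutagen. The assays were chosen by name, as those of the miR-26 and miR-101 numbers with any letter and without a star form. Of 376 miRNAs on the PCR array, 3 were found: mmu-miR-26b, mmu-miR-101a and mmu-miR-101b. The remaining name, mmu-miR-26a, was looked for among the names of all 384 wells and is carried by no well, so 3 of 4 names were measured.

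The animals were female Big Blue mice, a transgenic strain that carries a shuttle vector for scoring mutations in tissue, and all groups, controls included, share that transgene and were 6 months old when injected. Age at sampling was not shared, since no control was labelled later than day 30 and the mice of PTD 120 were older than any control. N-ethyl-N-nitrosourea (ENU), an alkylating mutagen and liver carcinogen, was injected once into the peritoneum at 120 mg/kg in 28 mice, and 7 control mice received the DMSO vehicle. Livers were taken at post-treatment day (PTD) 1, 3, 7 and 15 (n = 5 each) and at PTD 30 and 120 (n = 4 each), and each liver was run on its own array. The labels place 3 controls at day 1 and 4 at day 30, whereas the written methods exchange those counts and the array headers mark the same 3 controls D0. They are called day 1 controls here after the labels. RNA enriched for small species was taken from whole liver, in which fewer cells of a type and less RNA per cell cannot be told apart.

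miRNAs guide Argonaute proteins to messenger RNAs by pairing of a short 5′ seed, and so lower the yield of protein from their targets. miR-26 and miR-101 both have target sites in the mRNA of Ezh2, the histone methyltransferase of Polycomb repressive complex 2, and both are known to be low in hepatocellular carcinoma, where restoring them slows tumour growth. Ezh2 itself was not measured on the arrays.

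The mature sequences are shown so that seed and body can be compared between the members. The primers of the assays were not given. Whether the miR-26b assay also reads miR-26a, or the miR-101 assays read each other's target, was not tested. They are RefSeq entries on GRCm38.p6, written 5′ to 3′ with bases 2 to 8, the seed, in capitals. The array gives no arm in the names of these miRNAs, and the arm printed is the one that bore the armless name in older nomenclature.
mmu-miR-26b-5p: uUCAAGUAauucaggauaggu
mmu-miR-26a-5p (no assay): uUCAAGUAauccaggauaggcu
mmu-miR-101a-3p: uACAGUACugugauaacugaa
mmu-miR-101b-3p: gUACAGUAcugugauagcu

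miR-26b and miR-26a share the seed UCAAGUA and 19 of 21 aligned bases, with the substitutions U11C and U21C from miR-26b to miR-26a, counted from 1 at the 5′ end. The RefSeq entry of miR-101b begins 1 base before that of miR-101a, so that its bases 2 to 8 read UACAGUA against ACAGUAC. Once shifted by that base, the miR-101 pair is identical at 17 of 18 aligned positions and differs by A16G, counted on miR-101a. Mature miR-26b lies at chr1:74394324-74394344 on the plus strand, within the bounds of Ctdsp1, a gene for a phosphatase of the RNA polymerase II tail. miR-26a has copies at chr9:119031811-119031832 and chr10:126995543-126995564, both on the plus strand and within the bounds of the related genes Ctdspl and Ctdsp2. miR-101a lies at chr4:101346957-101346977 on the minus strand, within the bounds of the long noncoding RNA gene E130102H24Rik, and miR-101b at chr19:29135338-29135356 on the plus strand, within the bounds of Rcl1. The table of genes that was used gives bounds only, so exon and intron were not assigned. Among 289 array miRNAs with a mature sequence under their name (either arm counted for the 147 with both listed), 0 others share bases 2 to 8 with a member, miR-144 shares bases 2 to 7 with miR-101a, and miR-582-5p shares them with miR-101b.

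Threshold cycles (Ct, the PCR cycle at which a well crosses the fluorescence threshold) were read in all 35 arrays for all 3 members. Over the arrays the mean Ct was 20.0 for miR-26b, 22.3 for miR-101a and 19.1 for miR-101b, which placed them 28th, 56th and 18th among the 376 miRNAs ordered from the lowest mean Ct. Ct also depends on the primers of an assay, so these ranks are no order of abundance. miR-122, the main miRNA of hepatocytes, had the lowest mean Ct of the array, 14.5, as liver RNA would give. Levels are given below as -ΔCt, the mean Ct of 4 reference RNAs (snoRNA251, snoRNA202, snoRNA142 and U6) minus the Ct of the miRNA. This is a log2 scale on which a difference of 1 is a fold change of 2.

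The headers give a run date for each of the 35 arrays, and gaps between these dates were used here to set 3 run periods. The first period held the 3 controls labelled day 1, 4 arrays of PTD 1 and all arrays of PTD 3, 7 and 15. The second held 2 controls labelled day 30, the remaining array of PTD 1 (replicate 4) and all arrays of PTD 30 and 120, and the third held only 2 controls labelled day 30. The day 1 and day 30 controls share no run period, so for that difference the period and the labelled day cannot be told apart. The controls differed between these sets before any comparison with ENU. The median of all 376 miRNAs was 1.00 higher on the -ΔCt scale in the day 30 controls than in the day 1 controls, while the reference RNAs had a mean Ct of 22.1 against 21.2 and the array medians of Ct were 29.0 in both.

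The -ΔCt of miR-26b was 1.02, 1.36 and 0.45 in the controls labelled day 1, and 2.55, 2.71, 3.35 and 3.26 in those labelled day 30, the last pair from the third run period. The 2 control sets did not overlap, and their means differed by 2.02 (exact permutation test, two-sided p = 0.0286, the smallest that 35 splits allow). Of the 375 miRNAs with a Ct in all 7 controls, 47.7% had every day 30 control above every day 1 control. Scaled by the array median, the miR-26b sets still did not overlap and differed by 1.12 (exact p = 0.0286). This was the 44th largest rise of the 376 miRNAs between the sets. After ENU the level at PTD 1 was 1.92, -0.24, -0.27, 1.13 and 1.43, which holds the lowest values of all 35 arrays. At PTD 3 it was 1.15, 1.40, 1.80, 2.70 and 2.18. PTD 7 gave 2.41, 1.58, 2.36, 1.73 and 3.00, and PTD 15 gave 2.09, 2.26, 2.41, 2.11 and 3.24. All arrays of PTD 7 and 15 lay above the day 1 controls of their own run period, as 35.6% and 44.5% of all miRNAs did. At PTD 30 the level was 2.96, 2.69, 3.04 and 1.99, and at PTD 120 it was 2.34, 2.68, 2.22 and 2.22. The 1.99 at PTD 30 and all values of PTD 120 but the 2.68 lay below every day 30 control.

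miR-101a was the member with the highest Ct. Its -ΔCt was -0.76, -0.99 and -1.60 in the day 1 controls and -0.34, -0.34, 0.16 and 0.76 in the day 30 controls, again without overlap (difference 1.17, exact p = 0.0286). That separation held only with the reference RNAs, since with the array median the sets overlapped and differed by 0.27 (exact p = 0.629), and their raw Ct differed by -0.29 (exact p = 0.457). At PTD 1 it was -0.75, -1.87, -1.54, -0.99 and -0.12, and at PTD 3 -0.59, -0.39, -0.35, 0.61 and -0.27. The PTD 1 arrays spread around the day 1 controls, while every PTD 3 array was above them, as for 20.9% of all miRNAs. The levels were -0.18, -0.34, -0.39, 0.04 and 0.64 at PTD 7 and 0.12, -0.08, 0.55, -0.21 and 0.26 at PTD 15. At PTD 30 they were -0.31, 0.57, 0.67 and -0.27, and at PTD 120 -0.11, -0.62, -0.39 and 0.08. From PTD 3 on, no array fell to the range of the day 1 controls, as for 35.6% of all miRNAs at PTD 7 and 44.5% at PTD 15. PTD 30 and 120 were not run in the period of those controls. The day 30 controls themselves lay above the day 1 controls for 47.7% of all miRNAs.

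miR-101b differed least between the control sets, with 2.50, 2.48 and 1.87 in the day 1 controls and 3.17, 3.12, 2.75 and 2.96 in the day 30 controls (difference 0.72, exact p = 0.0286). With the array median this turned to -0.19 with overlapping sets (exact p = 0.629), and the raw Ct was 0.17 higher in the day 30 controls (exact p = 0.657). At PTD 1 its -ΔCt was 2.83, 1.45, 1.87, 2.18 and 3.12, and at PTD 3 it was 2.72, 3.55, 2.67, 3.65 and 2.55. Levels of 2.87, 2.37, 2.81, 2.98 and 3.41 followed at PTD 7 and of 3.03, 3.09, 3.20, 2.86 and 3.48 at PTD 15. At PTD 30 they were 3.49, 3.99, 4.05 and 3.18, the middle pair being the highest of the 35 arrays. All 4 exceeded the highest of the 7 controls, the last of them only just, which 1.34% of all miRNAs did. With the array median the PTD 30 levels (10.15 to 10.78) overlapped those of the 7 controls (9.49 to 10.61). PTD 120 gave 3.22, 3.14, 3.22 and 3.37, the narrowest spread of any group.

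**Figure D1:**
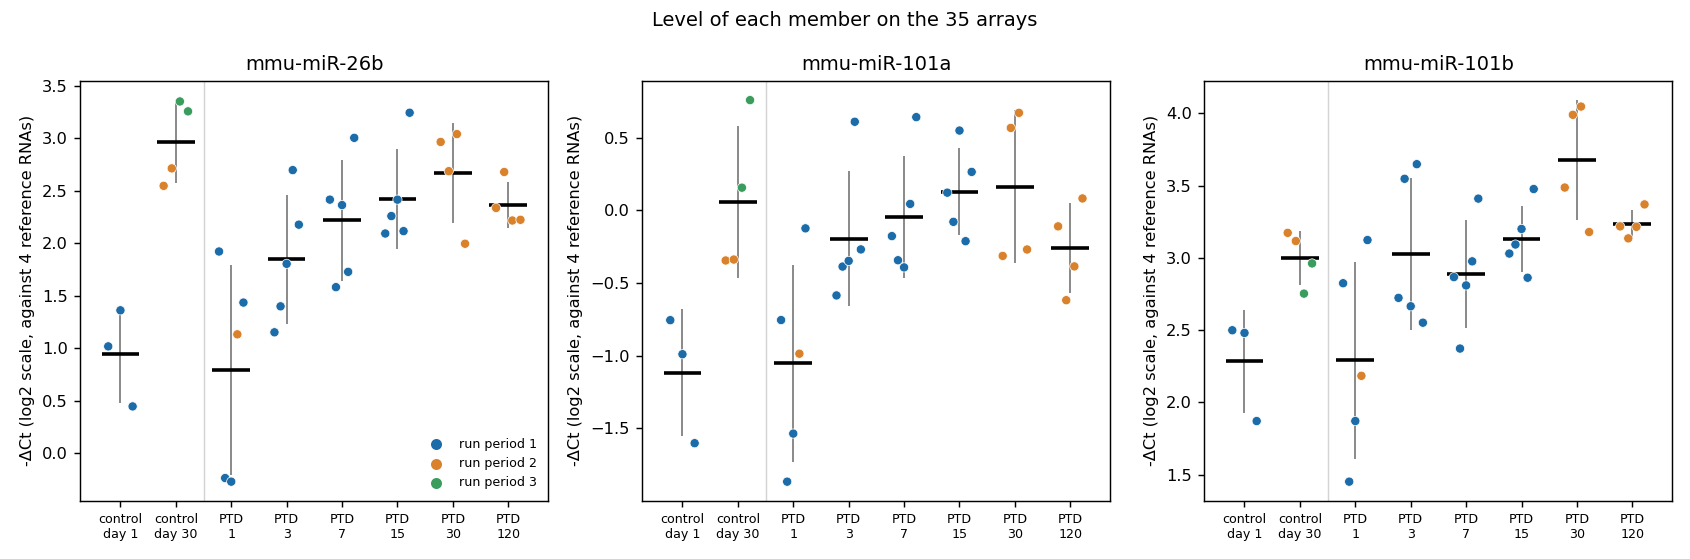
The -ΔCt (log2 scale) of mmu-miR-26b, mmu-miR-101a and mmu-miR-101b on each of the 35 arrays, with a point for each mouse coloured by run period, a black bar for the mean and a grey line for the SD. The day 1 controls (mean 0.94 for miR-26b) sit below the day 30 controls (mean 2.97), and PTD 1 has the lowest mean of all ENU groups for each member.

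In order of the group means, with the 7 controls as 1 group, PTD 1 was the lowest group for all 3 members and PTD 30 the highest. The mean ran from 0.80 ± 1.00 (SD, n = 5) to 2.67 ± 0.48 (n = 4) for miR-26b, from -1.05 ± 0.68 to 0.16 ± 0.53 for miR-101a and from 2.29 ± 0.68 to 3.68 ± 0.42 for miR-101b. The control mean was 2.10 ± 1.15 (SD, n = 7), -0.45 ± 0.77 and 2.69 ± 0.46 for the same miRNAs. Taken alone, the day 1 controls had means below PTD 1 for miR-101a (-1.12) and miR-101b (2.28). The day 30 controls alone had a mean above PTD 30 for miR-26b (2.97). None of the 18 steps between neighbouring groups in these orders reached p = 0.05 (exact permutation tests, two-sided p from 0.111 to 0.905). The steps that exceeded the SD of both groups were miR-26b from PTD 1 to PTD 3, by 1.05, and miR-101b from PTD 120 to PTD 30, by 0.44.

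Against all 7 controls none of the 3 members was called at any PTD. A call here follows the study's rule for differentially expressed miRNAs, an unadjusted p under 0.01 together with a fold change above 2, and p comes from limma fitted over all 376 miRNAs. Under that rule the share of the 376 miRNAs called was 1.33% at PTD 1, 2.13% for PTD 3, 9.84% for PTD 7, 11.4% for PTD 15, 1.60% for PTD 30 and 1.33% for PTD 120. Of the 18 member values, those with an unadjusted p under 0.05 were miR-26b at PTD 1, beside 19 of all 376 miRNAs, and miR-101b at PTD 30, beside 40 of 376. The members were also not called by the methods' t-test or by the exact permutation test.

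miR-26b at PTD 1 had a log2 fold change of -1.30 (SE 0.59, 95% interval -2.55 to -0.05, limma adjusted p = 0.669), and 2 of 5 arrays lay below every control. The median of all miRNAs in that comparison was -0.37. With only the 3 controls from its own run period, with replicate 4 left out because it was run in another period, the log2 fold change of miR-26b at PTD 1 was -0.23 (SE 0.59, adjusted p = 0.994). miR-101a and miR-101b at PTD 1 moved from -0.61 and -0.40 against all controls to 0.05 and 0.03 against those of the same period. Against all controls they were -0.24 and -0.03 with the array median. With a mouse left out they ran from -0.84 to -0.41 and from -0.61 to -0.19. The size of the miR-26b difference and the sign of the miR-101 differences at PTD 1 thus changed with the control set.

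At PTD 30 miR-101b had a log2 fold change of 0.98 (SE 0.34, 95% interval 0.25 to 1.72, limma adjusted p = 0.435), a fold change of 1.98. The exact permutation test over these 4 and 7 arrays gave p = 0.00606. The median of all 376 miRNAs rose by 0.54 in the same comparison, and miR-101b ranked 49th from the highest. Against the 2 controls of the second run period the log2 fold change was 0.53 (SE 0.41, adjusted p = 0.998), with all 4 arrays above both controls, as for 6.15% of all miRNAs (exact p = 0.133, where 15 splits allow no p under 0.0667). At PTD 120 miR-101b was 0.54 above all controls (SE 0.31, adjusted p = 0.484, exact p = 0.0333) and 0.09 above those of its run period (SE 0.32, adjusted p = 0.992). Scaled by the array median, the mean of miR-101b was 9.91 in all 7 controls, 10.48 at PTD 30 and 10.03 at PTD 120.

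**Figure D2:**
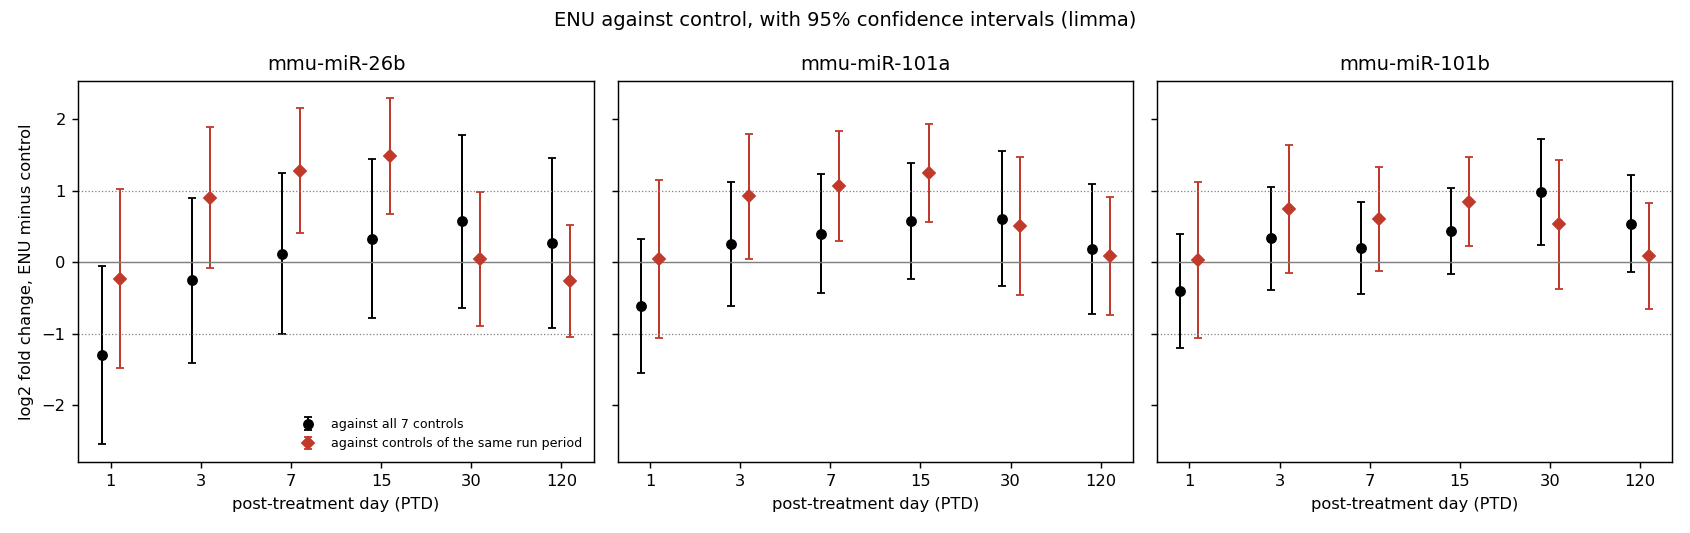
Log2 fold change of each member at each PTD (ENU minus control) with its 95% confidence interval from limma, against all 7 controls (black circles) and against controls from the same run period (red diamonds). Dotted lines mark a fold change of 2, which miR-26b exceeded at PTD 7 (1.28) and PTD 15 (1.48) only against controls from its run period.

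Compared with controls from the same run period, miR-26b and miR-101a were higher at PTD 7 and 15. miR-26b had a log2 fold change of 1.28 at PTD 7 (SE 0.39, adjusted p = 0.0265) and of 1.48 at PTD 15 (SE 0.36, adjusted p = 0.0104), and was called at both. All 5 arrays lay above all 3 controls at each PTD (exact p = 0.0357 and 0.0179). For miR-101a the log2 fold change was 1.07 at PTD 7 (SE 0.35, limma adjusted p = 0.0312, not called because the unadjusted p was above 0.01) and 1.24 at PTD 15 (SE 0.30, adjusted p = 0.0107, called). miR-101b was not called, with 0.60 at PTD 7 (SE 0.33, adjusted p = 0.142) and 0.85 at PTD 15 (SE 0.27, adjusted p = 0.0294). At PTD 3 the 3 members lay between 0.74 and 0.92 above these controls, with adjusted p from 0.173 to 0.245 and none called.

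These rises were shared with much of the array. In the same comparisons the called share of the 376 miRNAs was 1.06% for PTD 1, 7.98% for PTD 3, 33.0% for PTD 7, 40.4% for PTD 15, 0.798% for PTD 30 and 0% for PTD 120, where limma gave 8 miRNAs an unadjusted p under 0.05. Beside a share of 33.0% at PTD 7 and 40.4% at PTD 15, the 1 of 3 and 2 of 3 members called are no result particular to them. Over all miRNAs the log2 fold change had a median of 0.63 at PTD 3, 0.84 at PTD 7 and 1.05 at PTD 15. Relative to that median miR-26b stood 0.44 above at PTD 7 and at PTD 15, miR-101a 0.23 and 0.20 above, and miR-101b 0.24 and 0.20 below. By rank from the highest log2 fold change, miR-26b was 94th and 85th of 376, miR-101a 141st and 134th, and miR-101b 223rd at both PTDs.

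**Figure D3:**
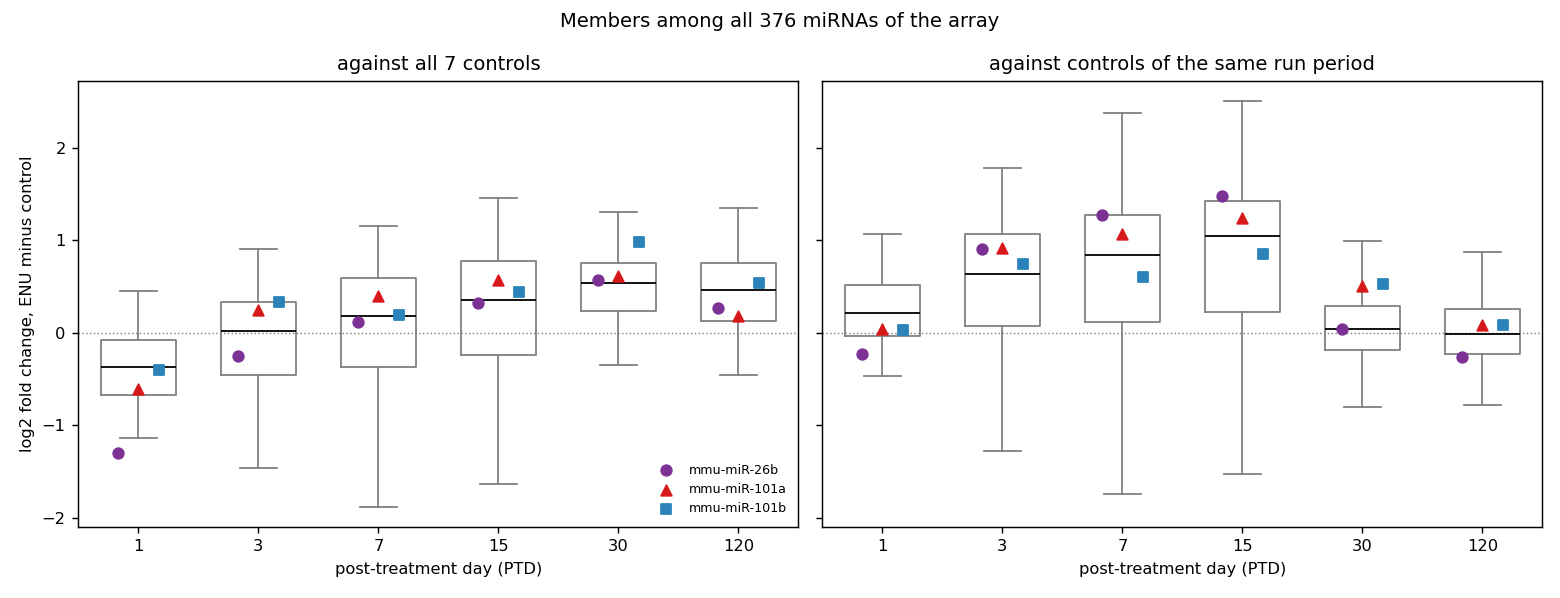
Log2 fold changes (ENU minus control) of all 376 miRNAs at each PTD as boxes (median and quartiles, whiskers from the 5th to the 95th percentile), with the 3 members as coloured symbols, against all 7 controls (left) and against controls from the same run period (right). On the right the medians at PTD 3, 7 and 15 are 0.63, 0.84 and 1.05, with 286, 290 and 301 of the 376 miRNAs above 0, and all 3 members are above 0 there.

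The reference RNAs moved in the same arrays. Compared with controls from the same run period their mean Ct was higher by 0.81 at PTD 3, 1.01 at PTD 7 and 1.28 at PTD 15 (exact p = 0.0357, 0.0357 and 0.0179), and a higher reference Ct raises every -ΔCt by the same amount. The Ct of miR-26b itself averaged 20.3 in the day 1 controls, 20.0 at PTD 7 and 20.1 at PTD 15. That of miR-101a was 22.4, 22.3 and 22.4, and that of miR-101b 19.0, 19.4 and 19.4. Without normalization, against all 7 controls, the log2 fold changes at PTD 7 and 15 were below 0 for all 3 members, between -0.45 and -0.10. With the array median in place of the reference RNAs they were between 0.36 and 0.70. No member was called at either PTD by these settings. Which of these scalings follows the RNA content of the liver was not tested.

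**Figure D4:**
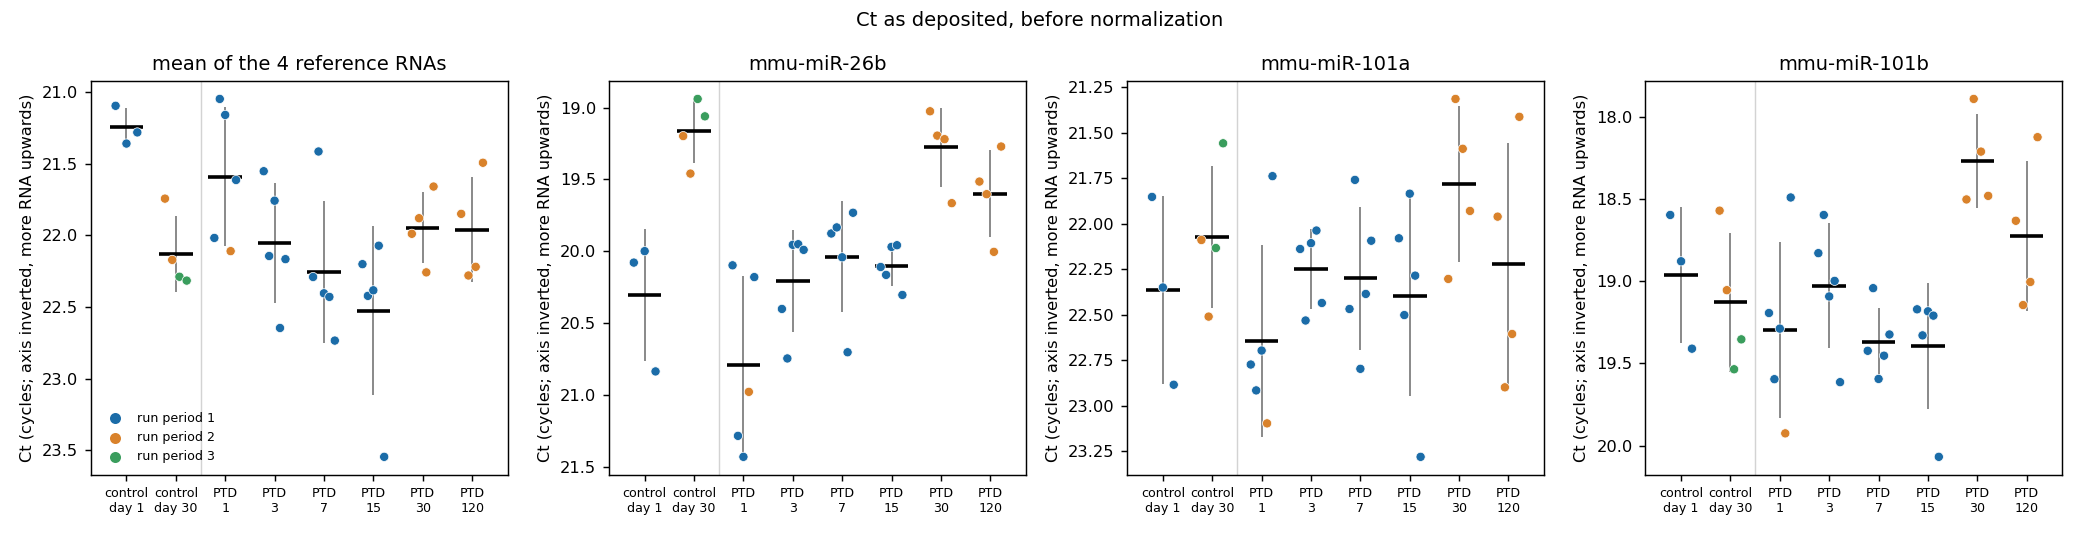
Ct as deposited (cycles, axis inverted so that more RNA lies upwards) of the mean of the 4 reference RNAs and of each member, per array, coloured by run period, with the mean as a bar and the SD as a line. The reference mean Ct goes from 21.2 in the day 1 controls to 22.5 at PTD 15, while the mean Ct of miR-101a is 22.4 in both groups.

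Differences between members within an array need no reference RNA. miR-101b minus miR-101a was between 2.20 and 3.93 over the 35 arrays, with a mean of 3.21. It was 3.26, 3.47 and 3.47 in the day 1 controls, 3.52 and 3.46 in the controls of the second run period, and 2.60 and 2.20 in those of the third. At PTD 7 it was 3.04, 2.72, 3.20, 2.93 and 2.77, and at PTD 15 it was 2.91, 3.17, 2.65, 3.08 and 3.21. All 10 arrays lay below the 3 controls of their run period, by 0.47 at PTD 7 and 0.40 at PTD 15 in the mean (exact p = 0.0357 each). PTD 30 and PTD 120 had means of 3.51 and 3.49, against 3.49 in the controls of the second period (differences 0.03 and 0.01, exact p = 1.00 each). Against all 7 controls no PTD differed (exact p from 0.218 to 0.761).

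The pair difference was set beside a technical reading of the arrays. Each array holds 2 wells for a reverse-transcription control, and the first well minus the second was above 0 on 12 arrays, among them both controls of the third run period. On those 12 arrays miR-101b minus miR-101a averaged 2.88 (2.20 to 3.21), and on the other 23 arrays it averaged 3.39 (2.77 to 3.93). Within the first run period the averages were 2.97 (n = 10) and 3.32 (n = 12). The well difference was below 0 on all 3 controls and all 4 PTD 1 arrays of that period. It was above 0 on 3 of 5 arrays of PTD 3, 4 of 5 of PTD 7 and 3 of 5 of PTD 15. The split at 0 thus followed the groups in part, and the 2 averages are no separate evidence. The part of this reading in the difference between groups was not tested by itself.

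**Figure D5:**
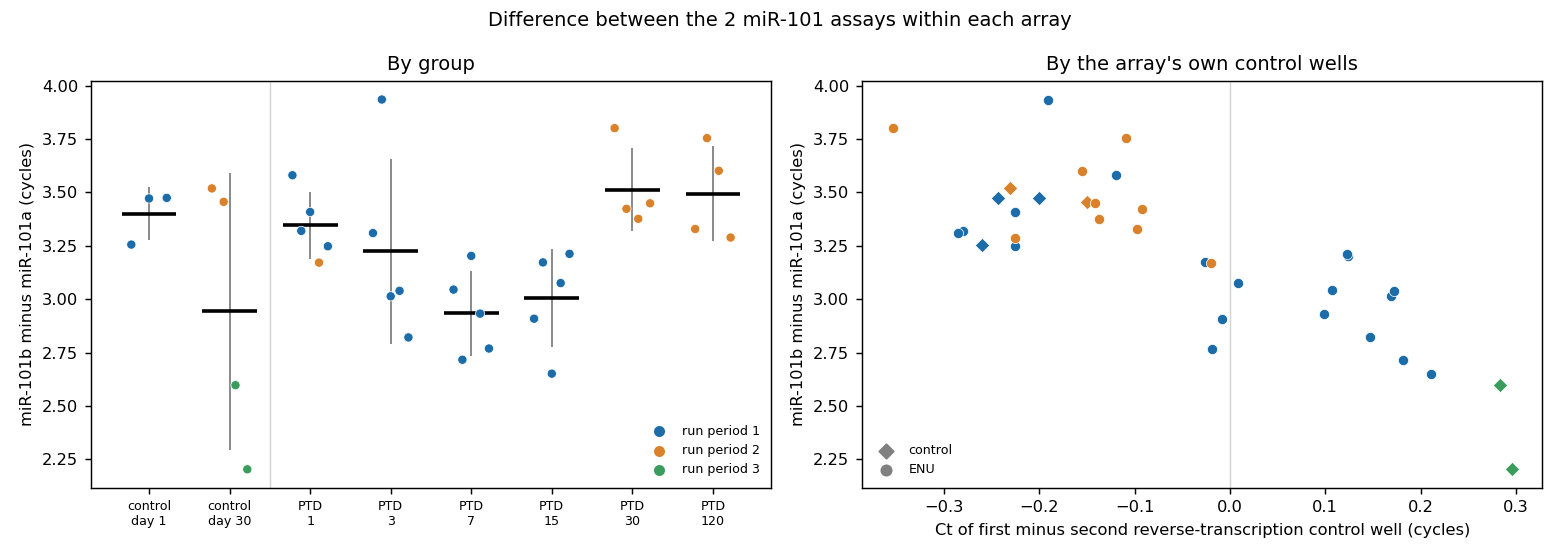
miR-101b minus miR-101a within each array (cycles) by group (left; points coloured by run period, bar for the mean, line for the SD) and against the Ct difference of the 2 reverse-transcription control wells of the same array (right; diamonds for controls, circles for ENU). The 12 arrays right of 0 average 2.88 and the 23 others 3.39, and the lowest pair of values, 2.60 and 2.20, belongs to controls.

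miR-26b minus the mean of the miR-101 pair separated the control sets as well, at 0.15, 0.62 and 0.31 in the day 1 controls and between 1.13 and 1.89 in the day 30 controls (exact p = 0.0286). At PTD 1 it was 0.89, -0.03, -0.44, 0.53 and -0.07, a mean of 0.18 against 0.97 in all controls (difference -0.80, exact p = 0.0480). Leaving out any of PTD 1 replicates 2, 3 or 5 or any control labelled day 30 brought that p above 0.05. With controls from the same run period the difference was -0.27 (exact p = 0.486). miR-26b thus did not move in step with the miR-101 pair between the control sets, whichever scaling is used. The rises of miR-26b, miR-101a and miR-101b between these sets ranked 44th, 152nd and 232nd of 376. How often other miRNAs part in this way was not tested.

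ENU groups of the first run period were also compared with each other directly, without any control. miR-26b was 1.71 higher at PTD 15 than at PTD 1 (SE 0.52, limma adjusted p = 0.0296), miR-101a 1.20 higher (SE 0.42, adjusted p = 0.0443) and miR-101b 0.81 higher (SE 0.42, adjusted p = 0.130). The 5 arrays of PTD 15 lay above the 4 of PTD 1 for miR-26b (exact p = 0.00794), as they did for 24.4% of all miRNAs. The median of all miRNAs was 0.80 higher in the same comparison and the reference mean Ct 1.06 higher. In the second run period PTD 120 was below PTD 30 by 0.31 for miR-26b, 0.42 for miR-101a and 0.44 for miR-101b (adjusted p = 0.985 each), with a median of -0.09 over all miRNAs.

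The miRNAs whose pattern was most like each member were found by the root mean square difference of centred -ΔCt over the 35 arrays, a description that shares reference RNAs and run periods with the members. For miR-26b these were miR-10a (0.28), miR-195 (0.28) and miR-802 (0.30), against a median of 0.86 over the 375 other miRNAs. The closest to miR-101a were miR-324-5p (0.25), miR-497 (0.27) and miR-338-3p (0.29), and the closest to miR-101b were miR-24 (0.25), miR-19a (0.25) and miR-106a (0.26). miR-101b stood only 11th in likeness to miR-101a and 29th the other way round, at 0.36, and miR-26b was farther from both.

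Other miRNAs known to target Ezh2 (miR-138, miR-214, miR-124, miR-98, miR-217 and let-7a) gave 1 call against all 7 controls, miR-138 at PTD 15 (log2 fold change 1.33, SE 0.44, adjusted p = 0.0652), beside 11.4% of all miRNAs. 0 of 6 were called at the other PTDs, where limma gave an unadjusted p under 0.05 to 1 of 6 at PTD 7, beside 92 of all 376, and to none of them otherwise. The list's median log2 fold change lay between -0.12 (PTD 1) and 0.75 (PTD 15), and over all miRNAs the median was -0.37 and 0.36 at these PTDs. Against controls of the same run period 3 of 6 were called higher at PTD 7 (miR-124 at 2.83, let-7a at 1.56 and miR-138 at 1.50) and 4 of 6 at PTD 15 (miR-124 at 2.52, miR-138 at 2.22, let-7a at 1.66 and miR-98 at 1.23), beside 33.0% and 40.4% of all miRNAs. None was called lower.

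Of 16 further miRNAs known to be low in liver cancer, 0 were called in either direction against all 7 controls at any PTD. Unadjusted p under 0.05 in limma was reached by 2, 1, 3 and 1 of the 16 at PTD 3, 7, 15 and 120, beside 39, 92, 109 and 33 of all 376, and by none at PTD 1 or 30. Against controls of the same run period 3 of 16 were called higher at PTD 3 (miR-29a at 1.60, miR-22 at 1.27 and miR-29c at 1.24), 4 at PTD 7 and 8 at PTD 15, and none lower, beside 7.98%, 33.0% and 40.4% of all miRNAs called in either direction. The 4 of PTD 7 were let-7c at 1.51, miR-29a at 1.45, miR-22 at 1.28 and miR-99a at 1.14. At PTD 15 they were let-7c at 1.65, miR-29a at 1.36, miR-195 at 1.34, miR-99a at 1.32, miR-497 at 1.23, miR-199a-5p at 1.21, miR-199b at 1.20 and miR-22 at 1.16. The list's median at these PTDs was 0.81, 0.95 and 1.20, against 0.63, 0.84 and 1.05 over all miRNAs.

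Markers of other cell types were read on the same scale, as the sum of 2 to the power of -ΔCt over each list. No marker well lacked a Ct and the highest Ct of any was 29.7. The 3 hepatocyte miRNAs (miR-122, miR-192 and miR-194) summed to 131 to 179 in the day 1 controls, 351 to 415 in the day 30 controls, 84.5 to 241 for PTD 1, 148 to 364 for PTD 3, 168 to 426 for PTD 7 and 61.6 to 524 for PTD 15, where the miR-122 well of replicate 1 stood apart at a -ΔCt of 3.29. The sums were 254 to 488 at PTD 30 and 288 to 461 at PTD 120. On this scale all 5 marker lists were higher in the day 30 than in the day 1 controls without overlap, as the 3 members and 47.7% of all miRNAs were. The 5 leukocyte miRNAs gave sums of 0.776 to 1.32 and 1.61 to 2.47 in the 2 control sets, 0.323 to 1.43 for PTD 1, 1.31 to 2.29 for PTD 3, 0.897 to 1.81 for PTD 7, 1.08 to 2.59 for PTD 15, 1.49 to 3.65 for PTD 30 and 2.67 to 4.59 for PTD 120. Against all 7 controls, miR-150, a lymphocyte miRNA, fell by 1.72 at PTD 1 and miR-142-3p rose by 1.35 at PTD 120 under the call rule (adjusted p = 0.108 and 0.446), beside 1.33% of all miRNAs at each of these PTDs. With same-period controls neither was called. At PTD 7 miR-142-5p was then called lower (log2 fold change -1.42, adjusted p = 0.0183), beside 33.0% of all miRNAs called in either direction, while 4 of the 5 leukocyte miRNAs were above 0 and the list's median was 0.82, against 0.84 over all miRNAs. Of the 3 hepatocyte miRNAs only miR-192 was called with same-period controls, at PTD 3, 7 and 15 (1.28, 1.36 and 1.35), beside 7.98%, 33.0% and 40.4% of all miRNAs. The hepatocyte list's medians there were 0.99, 1.19 and 1.15.

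The 3 erythroid miRNAs summed to 4.26 to 4.77 and 6.50 to 10.8 in the 2 control sets and to 7.73 to 18.1 at PTD 15, with 2.42 to 20.2 over the other ENU groups. miR-144, which shares bases 2 to 7 with miR-101a, and miR-451 were called higher at PTD 15 against all 7 controls (log2 fold change 1.52, adjusted p = 0.0162, and 1.04, adjusted p = 0.0635), beside 11.4% of all miRNAs. With same-period controls miR-451 was called at PTD 7 (1.21) and both at PTD 15 (1.43 for miR-144 and 1.54 for miR-451), beside 33.0% and 40.4%. The 2 endothelial miRNAs summed to 8.06 to 15.4 and 28.0 to 40.8 in the control sets and to 4.80 to 22.2 at PTD 1, 16.4 to 30.6 for PTD 3, 14.8 to 40.8 for PTD 7, 23.7 to 51.5 for PTD 15, 21.5 to 39.5 for PTD 30 and 21.4 to 35.2 for PTD 120. With same-period controls miR-126-5p was called higher at PTD 3 (1.31), and miR-126-3p and miR-126-5p at PTD 7 (1.25 and 1.38) and PTD 15 (1.47 and 1.66), beside 7.98%, 33.0% and 40.4% of all miRNAs. Against all 7 controls neither was called at these PTDs. The 3 stromal miRNAs summed to 0.387 to 0.637 and 1.58 to 1.96 in the control sets, to 0.227 to 0.861 at PTD 1, and to 0.588 to 4.13 over the later PTDs. Of these, miR-199a-5p and miR-199b were called with same-period controls at PTD 15, as given above. The part of these cell types in the members' values was not tested.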

How the data were processed

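Small-RNA cDNA from each liver was run by the authors on a 384-well mouse miRNA PCR array with SYBR Green, and per the file headers Ct was set by SDS 2.3 at a manual threshold of 0.15. The authors deposited 1 table of Ct per mouse, not normalized, with no read depth; the 35 mice give the precision. Wells were named from the array's published layout. Of all wells, 15 on 11 arrays had no Ct, none of a member, and were left missing. Here -ΔCt was the mean Ct of the 4 reference RNAs minus Ct. Each PTD was compared with the 7 controls by limma 3.58.1 in R 4.3.3 over 376 miRNAs, Benjamini-Hochberg adjusted, after the script was tested on simulated data. Single values were compared by exact permutation tests, two-sided (Python 3.11.15). Samples were grouped by the labels. Alternatives were the scaling, test, control set, run period, replicate block, Ct limits and leaving out each mouse. Members, marker and miRNA lists were chosen with earlier results of these data known. Named miRNAs were the members, references, miR-122, the 3 miRNAs most like each member, and list miRNAs that were called.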

Additional observations from a re-analysis of the deposited data

Results flagged for a closer look

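Among 35 combinations of a quantity and a group of 4 to 7 arrays, 3 held an array far from the rest by Dixon's criterion, where chance gives about 1 in 20. PTD 15 replicate 5 had the highest miR-26b -ΔCt of its group, 3.24, at a gap of 0.83 to the next array, and also the highest reference mean Ct of all 35 arrays, 23.5. PTD 3 replicate 4 had the highest miR-101a -ΔCt of its group, 0.61, at a gap of 0.88. PTD 30 replicate 1 had the largest difference of miR-101b minus miR-101a of its group, 3.80, at a gap of 0.35.

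Of 45 differences between ENU groups that were tested in a limma fit of all 7 groups, 10 had an adjusted p under 0.05 over all miRNAs, and PTD 1 was the lower group in each. Of all 376 miRNAs, 33.8%, 41.8%, 26.3% and 20.5% passed the same threshold for PTD 7, 15, 30 and 120 against PTD 1, with medians of 0.66, 0.81, 0.90 and 0.81, so the members moved with much of the array. Relative to PTD 1, miR-26b was higher by 1.42 (PTD 7), 1.63 (PTD 15), 1.87 (PTD 30) and 1.57 (PTD 120) (limma adjusted p = 0.0330, 0.0117, 0.0214 and 0.0307). miR-101a was higher by 1.01 at PTD 7, 1.18 at PTD 15 and 1.22 at PTD 30 (adjusted p = 0.0385, 0.0126 and 0.0250). miR-101b was higher by 0.84 at PTD 15, 1.38 at PTD 30 and 0.94 at PTD 120 (adjusted p = 0.0280, 0.0214 and 0.0367). PTD 30 and 120 were run in another period than 4 of the 5 arrays of PTD 1, so time and run period cannot be told apart for those 4. The PTD 1 array of their own period, replicate 4, had a -ΔCt of 1.13 for miR-26b, -0.99 for miR-101a and 2.18 for miR-101b. The lowest values of PTD 30 and 120 were 1.99, -0.62 and 3.14. With 1 such array this was not tested.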

How the results depend on the processing

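Each of the 18 member log2 fold changes against the 7 controls was recomputed under 19 other settings, which gave 342 values: 293 kept their direction and stayed uncalled, 31 changed sign and 18 became called. No member was called in the main comparison, so a change of sign concerns values that did not pass the test. The cause of these shifts was not tested.

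With only the 4 controls labelled day 30, miR-26b was -2.17 at PTD 1 (called). There 49 of all 376 miRNAs were called, and the median of all was -0.80. At PTD 7, 15, 30 and 120 miR-26b was -0.75, -0.54, -0.29 and -0.60. miR-101a was then -0.25, -0.10 and -0.32 at PTD 3, 7 and 120, and miR-101b -0.11 at PTD 7. With only the 3 labelled day 1, miR-26b was 0.90, 1.28, 1.48, 1.73 and 1.42 at PTD 3, 7, 15, 30 and 120, the last 4 called. miR-101a was 0.062, 1.24 and 1.28 at PTD 1, 15 and 30 and miR-101b 0.0073 and 1.39 at PTD 1 and 30, those above 1 called, where 124, 152, 141 and 105 of all 376 miRNAs were called at PTD 7, 15, 30 and 120. Same-period controls gave miR-26b 0.90, 1.28, 1.48 and -0.27 at PTD 3, 7, 15 and 120, miR-101a 0.046 and 1.24 at PTD 1 and 15, and miR-101b 0.034 at PTD 1, again with those above 1 called. With run period as a term, miR-26b had the same 0.90, 1.28, 1.48 and -0.27, and miR-101a was called at 1.07 and 1.24 at PTD 7 and 15. In that setting 143 and 160 of all 376 miRNAs were called at PTD 7 and 15, and with same-period controls 124 and 152.

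Scaling by the array median gave miR-26b 0.043 and -0.15 at PTD 3 and 120, and miR-101a -0.23 at PTD 120. Ct without normalization, chosen after seeing the data, gave miR-26b -1.14 (called), -0.38 and -0.45 at PTD 1, 7 and 15, miR-101a -0.053, -0.10, -0.20 and -0.023 at PTD 3, 7, 15 and 120, and miR-101b -0.31 and -0.34 at PTD 7 and 15. The reverse-transcription well difference as a covariate, also chosen after seeing the data, gave miR-26b -0.40 and -0.14 at PTD 7 and 15 and called miR-101b at PTD 30 at 1.05. A single fit of all groups called miR-26b at PTD 1 with -1.30, beside 7 of all 376 miRNAs. Without normalization 7 of all 376 were called at PTD 1, and with the covariate 13 at PTD 30. Each set of 3 reference RNAs, the methods' t-test, the exact test, the adjusted p as threshold, both Ct limits and the restriction to miRNAs of low mean Ct changed no sign and no call of a member.

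Leaving out 1 mouse at a time gave 210 values, of which 203 kept direction and call. The range was -0.16 to 0.33 for miR-26b at PTD 7 (below 0 without control 1, 2 or 3 or PTD 7 replicate 5). It was 0.84 to 1.15 for miR-101b at PTD 30, which was called without PTD 30 replicate 4, beside 6 of all 376 miRNAs. At PTD 120 it was -0.011 to 0.47 for miR-26b and -0.0056 to 0.39 for miR-101a, both below 0 without control 3. Deviations of same-numbered mice correlated over 0.1 in 6 of 7 pairs at PTD 3 and 3 of 7 at PTD 1, but in at most 1 of 7 later, so the number was not taken as a pairing. Entered as a replicate block it turned miR-26b at PTD 7 to -0.13, changed no other sign and no call of a member, and gave 27 called miRNAs at PTD 15 against 43.

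Within arrays, miR-101b minus miR-101a against same-period controls was -0.012 and -0.18 at PTD 1 and 3, opposite in sign to the value against all controls, and with a mouse left out it lay between -0.094 and 0.18 at PTD 3, below 0 without PTD 3 replicate 2 or control 6 or 7. miR-26b minus the miR-101 mean was 0.072, 0.44 and 0.44 at PTD 3, 7 and 15 against same-period controls, and between -0.28 and 0.054 at PTD 120 with a mouse left out, above 0 without PTD 120 replicate 4 or control 6.

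The number of miRNAs called, 5, 8, 37, 43, 6 and 5 at PTD 1, 3, 7, 15, 30 and 120, ran up to 49, 50, 143, 160, 141 and 105 and down to 0, 3, 11, 24, 2 and 0 over the other settings, where the 11 and 24 are of the 205 miRNAs of low mean Ct and the rest of 376. With a mouse left out they ran from 2 to 7, 4 to 13, 28 to 44, 34 to 58, 4 to 15 and 1 to 15, the 15 at PTD 30 and 120 being without control 5, the 13 at PTD 3 without PTD 3 replicate 2, the 2 at PTD 1 without control 6 and the 1 at PTD 120 without PTD 120 replicate 2. The highest counts came from 1 set of controls or from run period as a term. At PTD 7 the calls were 9 higher and 28 lower, 44 and 24 with the array median and 4 and 57 without normalization, where the median of all miRNAs was 0.19, 0.49 and -0.32. At PTD 15 they were 25 and 18, 35 and 20, and 4 and 58. With 2 to 7 arrays a side, their number limits the precision.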
